A study of Mus musculus with 6 samples.

Results

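The insulin-like growth factor (IGF) ligands, their receptors and the IGF binding proteins were described in RNA-Seq libraries of mouse sciatic nerve. Among the 24015 genes counted, 10 were taken as members, namely the ligands *Igf1* and *Igf2*, the receptors *Igf1r* and *Igf2r*, and the binding proteins *Igfbp2*, *Igfbp3*, *Igfbp4*, *Igfbp5*, *Igfbp6* and *Igfbp7*. It was chosen on the rise of *Igfbp2* in Rnf40ΔSC libraries, so the values of *Igfbp2* are given as a description without a test. All 10 members passed the filter on low counts. *Igfbp1*, a further binding protein of the same family, was not among the members; it had 1 read in Rnf40ΔSC replicate 3 and 0 in the other libraries, below that filter.

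The study asked how loss of the ubiquitin ligase Rnf40, which monoubiquitinates histone H2B, affects Schwann cells during myelination. RNA was sequenced from 3 control and 3 Rnf40ΔSC libraries at postnatal day 14, each made from a pool of 3 sciatic nerves. Mice of both groups were homozygous for the floxed allele (Rnf40 fl/fl), and Rnf40ΔSC mice carried the Dhh::Cre transgene in addition. The strain is a mixed 129SvJ/C57Bl/6J background in the sample labels, whereas the study's methods name C3H in place of 129SvJ. The Dhh promoter was used to drive Cre in the Schwann cell lineage, and the libraries hold RNA of all cells of the nerve; recombination in other cell types was not measured in these data. Libraries held 1317167, 1992622 and 2468765 counts in control replicates 1, 2 and 3, and 2184268, 1459387 and 2186710 counts in Rnf40ΔSC replicates 1, 2 and 3.

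IGF1 and IGF2 are secreted growth factors that signal through the tyrosine kinase receptor encoded by *Igf1r*, while the receptor encoded by *Igf2r* takes up IGF2 for degradation in lysosomes. Binding proteins hold most secreted IGF outside cells, where they can either withhold it from the receptor or prolong its presence, and proteases release it from them. In peripheral nerve, IGFs support the survival of Schwann cells and their formation of myelin.

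*Rnf40*, the deleted gene, had 130.2, 126 and 142 normalised counts (counts put on one library size with TMM factors) in control and 90.2, 90.4 and 94.2 in Rnf40ΔSC libraries. Every Rnf40ΔSC library lay below every control library, which is the order the labels give. Its log2 fold change was -0.54 (SE 0.14, Benjamini-Hochberg adjusted p = 0.00242 in edgeR's quasi-likelihood test), and under total-count scaling it was -0.27 (edgeR adjusted p = 0.12, and between 0.00235 and 0.12 over all alternatives). Only some exons are floxed, and other cells of the nerve keep the gene. The fold change of whole-gene counts therefore does not measure how complete the deletion was. By staining, the study found Rnf40 absent from Schwann cells of the sciatic nerve at birth.

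Of the 9 members other than *Igfbp2*, 4 were lower and 0 were higher in Rnf40ΔSC nerves at an adjusted p of at most 0.05 in edgeR's quasi-likelihood test. Over all 11371 genes tested, 16.2% were lower and 15.4% higher, 31.6% in either direction. The lower members were both ligands, *Igf1* and *Igf2*, and the binding proteins *Igfbp5* and *Igfbp6*. At an unadjusted p under 0.05, 5 of the 9 were lower and 0 higher, against 20.7% and 20.3% of all genes, and DESeq2 called 3 lower and 0 higher, against 11.3% and 10.3%. The groups did not overlap in 5 of the 9 members, against 43.5% of all genes tested. At the limits the study used, which add a minimum of 0.8 for the size of the log2 fold change and of 20 for the base mean (average normalised count over all libraries), 0 of the 9 were called, against 8.78% of all genes. The median log2 fold change of the 9 was -0.22, beside -0.0026 for all genes tested. Direction depended in part on scaling, because total counts in place of TMM moved the median of all genes by 0.269. That scaling then gave 2 lower members, *Igf2* and *Igfbp6*, and 2 higher ones, *Igf2r* and *Igfbp3*. Of all 11371 genes tested, it called 880 lower and 3766 higher. All fold changes below are relative to the TMM scale unless stated.

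**Figure D1:**
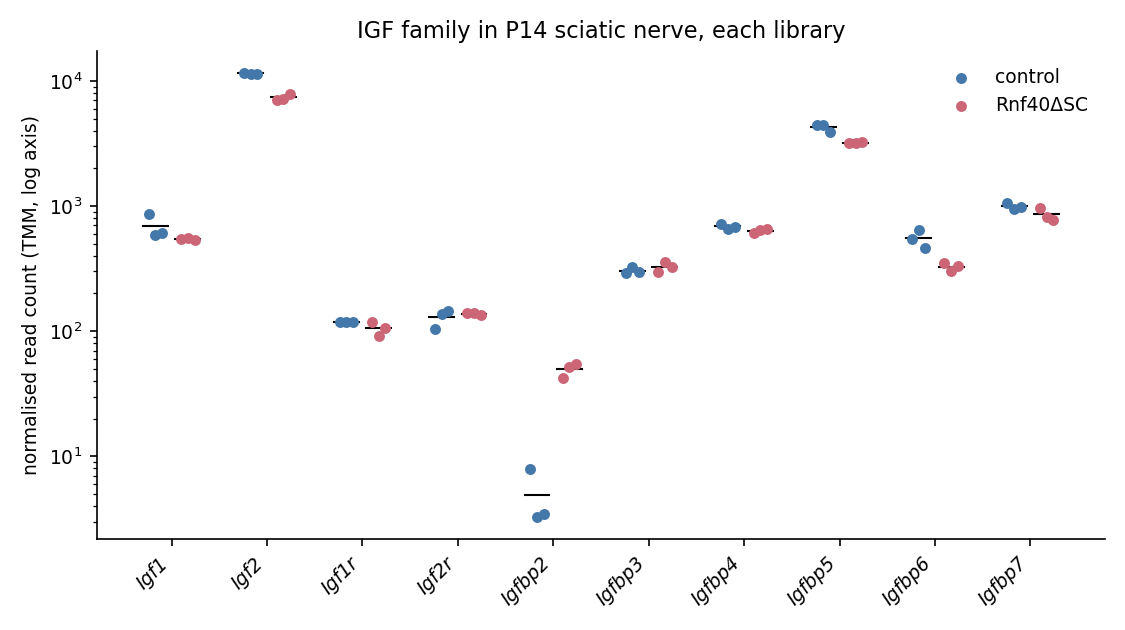
Normalised read counts (log axis) of the 10 members in each library, with control in blue, Rnf40ΔSC in red and a bar at each group's mean. *Igf2* is the most abundant in every library, and *Igfbp2* lies between 3.27 and 7.94 in control and between 42.2 and 54.3 in Rnf40ΔSC libraries.

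*Igf2* (chromosome 7, 149836673 to 149852721, minus strand, GENCODE vM1 annotation of mm9), the imprinted fetal growth factor, had 11566, 11439 and 11371 normalised counts in control and 7072, 7217 and 7870 in Rnf40ΔSC libraries. The control libraries lay close together and above all Rnf40ΔSC libraries. Its log2 fold change was -0.63 (SE 0.07, Benjamini-Hochberg adjusted p = 2.87e-09 in edgeR's quasi-likelihood test), and lower in 3 of 3 Rnf40ΔSC libraries. It ranged from -0.67 to -0.36 over 14 alternatives and was called in each. *Igf2* alone took 0.553%, 0.527% and 0.535% of all counts in control and 0.391%, 0.410% and 0.451% in Rnf40ΔSC libraries. Its antisense gene *Igf2as* shares 98 exonic bases with it, 1.78% of its exons, and since the strand setting of the counting is not given in the sources used here, reads of that stretch cannot be told apart. The antisense gene, listed in the count tables under its other symbol *Igf2os*, had 8, 3 and 8 reads in control and 13, 4 and 7 in Rnf40ΔSC libraries. In whole nerve, fewer cells of a type and less RNA per cell cannot be told apart either.

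*Igf1* (chromosome 10, 87321010 to 87399792, plus strand), the growth factor that acts downstream of growth hormone, had 864, 589 and 611 normalised counts in control and 549, 554 and 532 in Rnf40ΔSC libraries. Control replicate 1 stood above the other control libraries, and the groups did not overlap. On the log2 scale the fold change was -0.33 (SE 0.11, Benjamini-Hochberg adjusted p = 0.0276 in edgeR's quasi-likelihood test). Without control replicate 1 it was -0.14 (edgeR adjusted p = 0.325), and leaving out Rnf40ΔSC replicate 1, 2 or 3 gave -0.32, -0.34 and -0.29, close to the value with all libraries, with edgeR adjusted p-values of 0.101, 0.0885 and 0.132. DESeq2 gave -0.32 with an adjusted p of 0.0556 and total-count scaling -0.06 with 0.718 (edgeR), so that the call was lost in 7 of 14 alternatives, with adjusted p-values between 0.00658 and 0.718.

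Neither receptor passed the test. *Igf1r* (chromosome 7, 75097713 to 75371484, plus strand), which carries the signal of both ligands, had 119, 118 and 118 normalised counts in control and 119, 91.6 and 106 in Rnf40ΔSC libraries. The groups overlapped, with Rnf40ΔSC replicate 1 at the control level. Its log2 fold change was -0.15 (95% confidence interval -0.44 to 0.14, edgeR quasi-likelihood adjusted p = 0.453), and 0.12 under total-count scaling.

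*Igf2r* (chromosome 17, 12875272 to 12962530, minus strand), the clearance receptor, had 105, 137 and 144 normalised counts in control and 139, 140 and 136 in Rnf40ΔSC libraries. All Rnf40ΔSC values fell within the control range. Its fitted log2 fold change was 0.08 (95% confidence interval -0.19 to 0.35, edgeR quasi-likelihood adjusted p = 0.690), with -0.03 without control replicate 1 and 0.35 under total-count scaling (edgeR adjusted p = 0.0336, and between 0.0336 and 0.903 over 14 alternatives).

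*Igfbp2* (chromosome 1, 72871077 to 72899048, plus strand) encodes a binding protein with an integrin-binding motif. Control libraries held 5, 3 and 4 of its reads and Rnf40ΔSC libraries 51, 43 and 68, equal to 7.94, 3.27 and 3.44 against 42.2, 51.8 and 54.3 normalised counts. The lowest Rnf40ΔSC library lay above the highest control library. With 12 reads in all control libraries and 162 in all Rnf40ΔSC libraries, the ratio of scaled reads was 11.1. The fitted log2 fold change was 3.43 and ranged from 3.21 to 3.83 over 13 alternatives. *Igfbp2* made up 0.113%, 0.0465% and 0.0543% of the reads of the 6 binding proteins in control and 0.773%, 0.970% and 1.01% in Rnf40ΔSC libraries, so that it remained the least counted of them.

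*Igfbp5* (chromosome 1, 72904506 to 72921458, minus strand) lies 5457 bases from *Igfbp2*, in the opposite orientation, and encodes a binding protein that attaches to extracellular matrix. It had 4409, 4449 and 3905 normalised counts in control and 3191, 3171 and 3237 in Rnf40ΔSC libraries. Every Rnf40ΔSC library was below every control library, the opposite direction to its neighbour. This amounted to a log2 fold change of -0.41 (SE 0.08, Benjamini-Hochberg adjusted p = 5.51e-05 in edgeR's quasi-likelihood test). Under total-count scaling it was -0.14 (edgeR adjusted p = 0.124, and between 3.98e-06 and 0.124 over 14 alternatives).

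*Igfbp6* (chromosome 15, 101974793 to 101979942, plus strand), whose protein prefers IGF2 over IGF1, had 548, 647 and 465 normalised counts in control and 350.2, 300.1 and 332 in Rnf40ΔSC libraries. The control libraries were more spread than the Rnf40ΔSC libraries, and the groups did not overlap. The log2 fold change of -0.75 (SE 0.11, Benjamini-Hochberg adjusted p = 6.75e-07 in edgeR's quasi-likelihood test) had the largest size among the 9 members with all libraries. *Igfbp6* was called in all 14 alternatives, between -0.87 and -0.48. Without control replicate 2 it was at -0.62, and *Igf2* was lower at -0.64.

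The other binding proteins did not pass the test. *Igfbp3* (chromosome 11, 7106089 to 7113926, minus strand), the main IGF carrier of serum, had 289, 325 and 294 normalised counts in control and 297, 356 and 326 in Rnf40ΔSC libraries. Its groups overlapped, and the log2 fold change was 0.10 (95% confidence interval -0.10 to 0.31, edgeR quasi-likelihood adjusted p = 0.484). Under total-count scaling it was 0.37 (edgeR adjusted p = 0.00393, and between 0.00393 and 0.809 over 14 alternatives).

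*Igfbp4* (chromosome 11, 98902558 to 98913969, plus strand), a substrate of the protease PAPP-A, had 719, 655 and 683 normalised counts in control and 613, 644 and 650.3 in Rnf40ΔSC libraries. Its Rnf40ΔSC libraries lay just below the control libraries. The log2 fold change was -0.11 (95% confidence interval -0.29 to 0.07, edgeR quasi-likelihood adjusted p = 0.388), and 0.16 under total-count scaling.

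*Igfbp7* (chromosome 5, 77778265 to 77837070, minus strand), a related protein with low affinity for IGFs, had 1053, 946 and 988 normalised counts in control and 970.4, 818 and 778 in Rnf40ΔSC libraries. Rnf40ΔSC replicate 1 lay within the control range and the others below it. The log2 fold change was -0.22 (95% confidence interval -0.41 to -0.03 before adjustment, edgeR quasi-likelihood adjusted p = 0.0725), with -0.31 (edgeR adjusted p = 0.0299, and between 0.0179 and 0.704 over 14 alternatives) without Rnf40ΔSC replicate 1 and 0.05 under total-count scaling. Of its exons, 7.01% overlap those of *Polr2b* on the other strand.

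**Figure D2:**
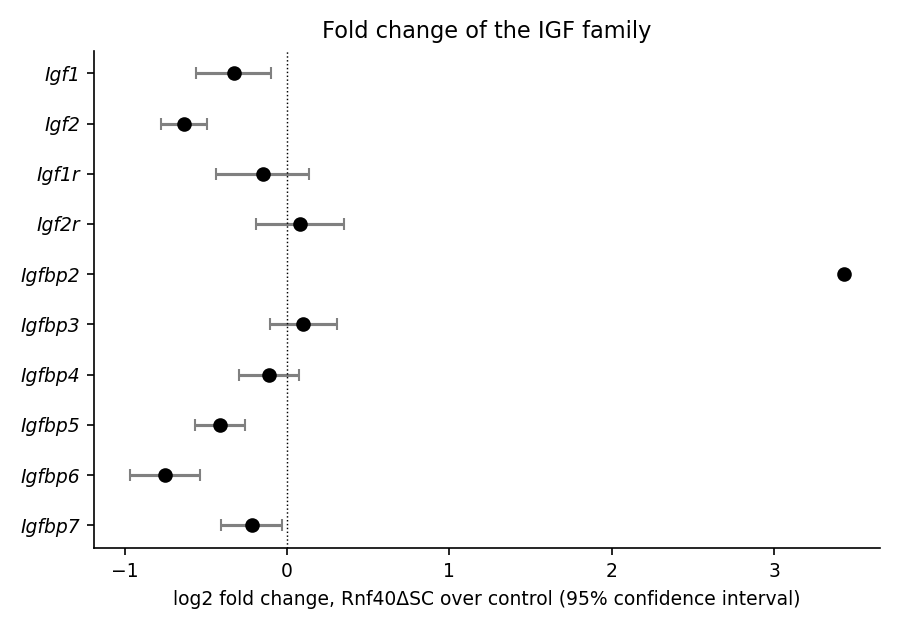
Log2 fold change of each member in Rnf40ΔSC over control nerves, with the 95% confidence interval of the edgeR fit before adjustment for all members but *Igfbp2*, which is drawn without one. *Igfbp6* (-0.75) and *Igf2* (-0.63) lie farthest below 0, and *Igfbp2* is at 3.43; total-count scaling places *Igf1r*, *Igfbp4* and *Igfbp7* above 0.

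Levels were compared between genes as RPKM, scaled reads per exon length. *Igf2* was highest in control nerves at 1082 ± 9.32 RPKM (SD, n = 3), followed by *Igfbp7* at 426 ± 23.0, *Igfbp5* at 367 ± 26.2, *Igfbp6* at 258 ± 42.6 and *Igfbp4* at 151 ± 7.09. *Igfbp3* (50.1 ± 3.19), *Igf1* (36.0 ± 7.97), *Igf1r* (13.7 ± 0.0872), *Igf2r* (7.07 ± 1.15) and *Igfbp2* (1.37 ± 0.743) followed. No neighbours in this order overlapped in the control libraries. In Rnf40ΔSC nerves *Igfbp2* reached 13.9 ± 1.79 RPKM (SD, n = 3), above *Igf1r* (12.2 ± 1.60) and *Igf2r* (7.59 ± 0.122), although its libraries overlapped those of *Igf1r*. *Igfbp6* at 153 ± 11.8 and *Igfbp4* at 140 ± 4.41 overlapped as well, and the order of this pair depended on the transcript length used.

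*Igf2* accounted for 96.0%, 97.2% and 97.1% of ligand RPKM in control and for 95.9%, 95.9% and 96.4% in Rnf40ΔSC libraries. The ligand makeup thus overlapped between groups. On the TMM scale, the summed binding protein RPKM was 1294, 1289 and 1176 in control and 1049, 978 and 979 in Rnf40ΔSC libraries. This sum was thus lower in every Rnf40ΔSC library. Summed binding protein RPKM was 1.14, 1.16 and 1.06 times the summed ligand RPKM in control and 1.51, 1.38 and 1.27 times in Rnf40ΔSC libraries, with every Rnf40ΔSC library above every control library; this ratio does not depend on library scaling, and it was not tested. With the longest transcript as length it was 0.997, 1.02 and 0.936 in control and 1.33, 1.22 and 1.13 in Rnf40ΔSC libraries, so that its level depended on the length used while the groups again did not overlap.

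**Figure D3:**
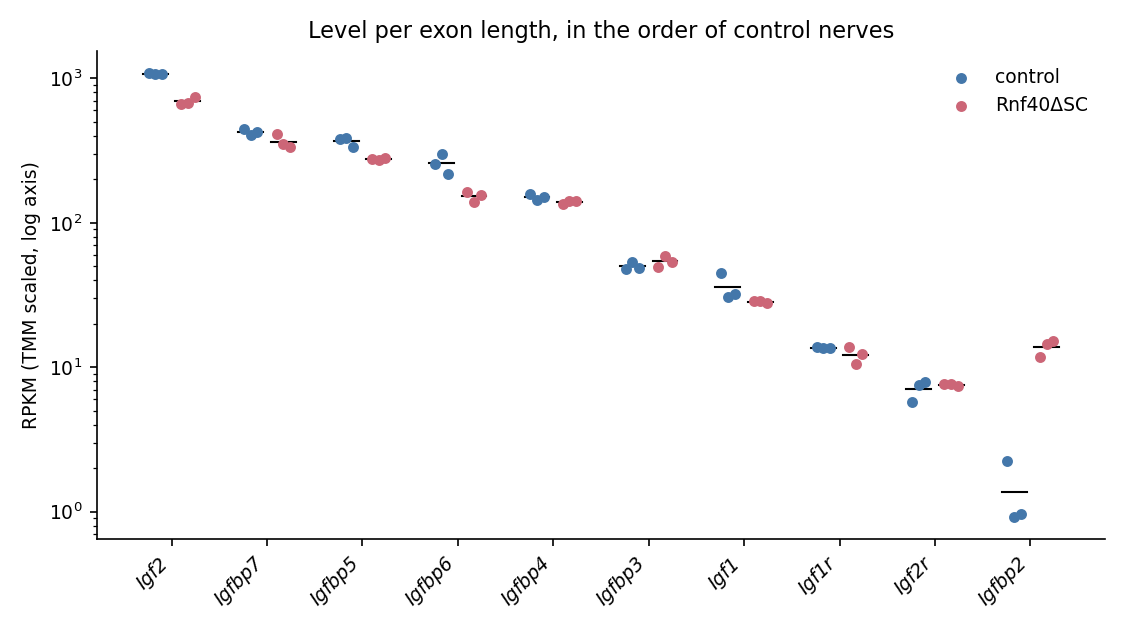
RPKM (log axis) of the 10 members in each library, in the order of their control means, with control in blue, Rnf40ΔSC in red and a bar at each group's mean. *Igf2* leads at a mean of 1082 in control and 697 in Rnf40ΔSC nerves, and *Igfbp2* moves from the lowest place to above both receptors by mean.

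Promoters are shown for the neighbours *Igfbp2* and *Igfbp5*, whose counts differed in opposite directions, and for *Igfbp6*, whose fall was the largest among members with all libraries. RefSeq start sites (GRCm38.p6) were matched for 10 of 10 members, with 14 windows of 250 bases before and 50 after a start. The 250 bases before the start are given 5′ to 3′ on the strand of the gene, with matches of GGGCGG on either strand in capitals. For *Igfbp2* the stretch is chr1:72824230-72824479 (plus strand), the upstream of its 2 start sites; for *Igfbp5* it is chr1:72874866-72875115 (minus strand), and for *Igfbp6* chr15:102143936-102144185 (plus strand).
Igfbp2: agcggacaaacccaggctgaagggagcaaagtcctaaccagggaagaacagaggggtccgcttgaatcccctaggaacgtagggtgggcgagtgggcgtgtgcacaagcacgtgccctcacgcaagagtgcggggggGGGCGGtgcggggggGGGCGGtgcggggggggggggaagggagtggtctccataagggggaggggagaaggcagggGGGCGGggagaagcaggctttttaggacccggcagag
Igfbp5: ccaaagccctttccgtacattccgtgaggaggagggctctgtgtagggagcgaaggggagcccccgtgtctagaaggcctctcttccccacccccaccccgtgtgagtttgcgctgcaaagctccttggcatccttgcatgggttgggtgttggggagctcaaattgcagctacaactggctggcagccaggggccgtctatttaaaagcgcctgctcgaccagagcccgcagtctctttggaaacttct
Igfbp6: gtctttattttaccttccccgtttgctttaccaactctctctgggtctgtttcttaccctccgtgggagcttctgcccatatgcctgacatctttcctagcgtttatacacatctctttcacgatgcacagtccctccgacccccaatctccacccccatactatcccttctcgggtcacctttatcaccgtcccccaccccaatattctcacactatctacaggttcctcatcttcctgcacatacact
*Igfbp2* held 3 matches of GGGCGG in these bases, and *Igfbp5* and *Igfbp6* held 0. GC content was 67.2%, 58.8% and 49.6% in that order. Over the full 300-base windows, GGGCGG was found for 5 of 10 members, in 6 of 14 windows, against 35.7% of all 32851 windows. The members were *Igf2* (2 and 1 matches in separate windows), *Igf1r* (2), *Igf2r* (3), *Igfbp2* (3) and *Igfbp7* (4). The window of the downstream *Igfbp2* start held 0. The early growth response type motif GCGNGGGCG, searched on both strands, was found in 1 of the 14 windows, that of *Igf2r*, against 5.6% of all windows. CANNTG was found in 10 of 14 windows, against 72.3% of all. These matches are a description of letters in the windows.

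Other genes of the IGF pathway were taken from lists by role. Of 49 genes listed, 48 were in the count tables under the listed symbol, *Igf2as* was there as *Igf2os* and was below the filter on low counts, and 32 passed it; 7 of these were lower and 3 higher in Rnf40ΔSC nerves, together 31.2%, beside 31.6% of all genes tested. Their median log2 fold change was -0.17. Under total-count scaling 4 were lower and 8 higher, beside 880 lower and 3766 higher of all 11371 genes tested. The counts by role below, on the TMM scale, stand beside 16.2% lower and 15.4% higher of all genes tested. Each role holds few tested genes.

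Among proteases that cleave binding proteins and their inhibitors, 2 of 4 genes tested were lower, the secreted serine proteases *Htra1* and *Htra3*. *Htra3* had 265, 267 and 197 normalised counts in control and 156, 112 and 140 in Rnf40ΔSC libraries, without overlap, at a log2 fold change of -0.81 (SE 0.13, edgeR quasi-likelihood adjusted p = 7.94e-06). *Htra1*, the most abundant of the list, was at -0.42 on the log2 scale (edgeR adjusted p = 0.00195), which was -0.15 under total-count scaling (edgeR adjusted p = 0.278, and between 0.000346 and 0.278 over 14 alternatives). *Htra1* was also not called with Rnf40ΔSC replicate 3 alone of its group. *Pappa* and *Pappa2*, which encode metalloproteases of binding proteins, were below the filter.

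Among receptor adaptors, 2 of 9 were lower and 1 higher. *Grb10*, an inhibitor of insulin and IGF1 receptor signalling, had 605, 558 and 588 normalised counts in control and 419, 364 and 382 in Rnf40ΔSC libraries. The groups were well separated, with a log2 fold change of -0.58 (SE 0.09, edgeR quasi-likelihood adjusted p = 6.22e-06). The related *Grb14* had a log2 fold change of -0.78 (SE 0.15, edgeR adjusted p = 9.36e-05), and both were called in all 14 alternatives. *Grb2*, which couples receptors to Ras, was at 0.41 (edgeR adjusted p = 0.0213, and between 0.00016 and 0.325 over 14 alternatives); its call was lost in 6 of them, among them DESeq2 and the fits without control replicate 1 (0.37) or 2 (0.39) or Rnf40ΔSC replicate 1 (0.37) or 2 (0.38). *Gab1* was the most abundant adaptor and did not pass (0.11, 95% confidence interval -0.08 to 0.30, edgeR adjusted p = 0.384), whereas it was called higher under total-count scaling (0.38).

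Of the growth hormone input, 1 of 5 genes was lower, the receptor gene *Ghr*. It had 210, 158 and 212 normalised counts in control and 152, 127 and 122 in Rnf40ΔSC libraries, which did not overlap. The log2 fold change was -0.52 (edgeR adjusted p = 0.00173), and -0.26 under total-count scaling (edgeR adjusted p = 0.116, and between 0.000347 and 0.116 over 14 alternatives). None of the 3 tested genes that bind *Igf2* RNA or neighbour imprinted members passed in edgeR. The most abundant, *H19*, the imprinted neighbour of *Igf2*, had 5792, 4192 and 4522 normalised counts in control and 3076, 3125 and 4102 in Rnf40ΔSC libraries. These groups did not overlap, while the log2 fold change of -0.49 (95% confidence interval -0.90 to -0.09 before adjustment) had an adjusted p of 0.0714 from edgeR.

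Other proteins with an IGFBP-type domain had 2 of 5 genes lower and 1 higher. *Nov*, the most abundant, and *Wisp1*, both of the CCN family of matrix proteins, had log2 fold changes of -0.45 and -0.65 (edgeR adjusted p = 0.000391 and 0.000161). *Nov* was at -0.19 under total-count scaling (edgeR adjusted p = 0.125, and between 0.000178 and 0.125 over 14 alternatives), and *Wisp1* was called in each. *Crim1*, a membrane protein whose groups overlapped, was at 0.42 (edgeR adjusted p = 0.00876, and between 5.98e-05 and 0.128 over 14 alternatives), which was 0.39 without control replicate 2 and 0.31 without control replicate 3, both without a call. Of other ligands, receptors and binding proteins, *Ins1* and *Ins2* had 0 reads in every library, and *Insr* was the most abundant and the one gene tested (0.06, 95% confidence interval -0.21 to 0.33, edgeR adjusted p = 0.765); under total-count scaling it was called higher (0.33).

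Among genes whose proteins bind IGFBP2, 1 of 5 was called. *Ptprz1*, a receptor tyrosine phosphatase, had 30.2, 24.0 and 27.5 normalised counts in control and 130.0, 102 and 141 in Rnf40ΔSC libraries. All Rnf40ΔSC libraries were above all control libraries, at a log2 fold change of 2.21 (SE 0.19, edgeR quasi-likelihood adjusted p = 5.51e-12), which ranged from 2.13 to 2.48 over 14 alternatives. The integrin gene *Itgb1* was the most abundant of the list and did not pass (-0.17, 95% confidence interval -0.33 to -0.01 before adjustment, edgeR adjusted p = 0.105).

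**Figure D4:**
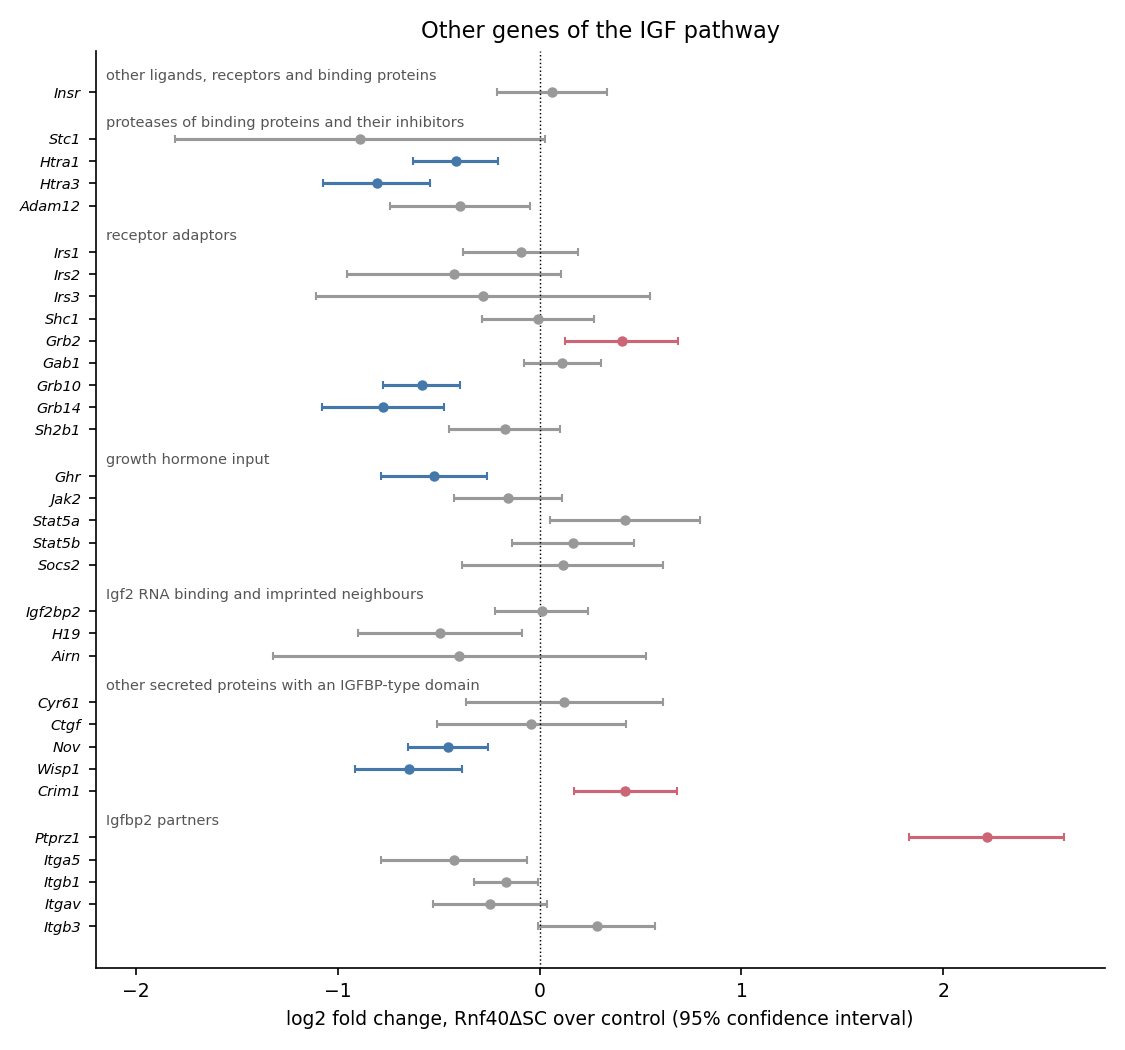
Log2 fold change of the 32 tested pathway genes by role in Rnf40ΔSC over control nerves, with 95% confidence intervals before adjustment; red marks genes called higher, blue genes called lower and grey the others. *Ptprz1* (2.21) stands apart from the other genes; total-count scaling shifts all genes upwards by about 0.27.

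The genes most like *Igfbp2* across the 6 libraries, by Pearson r of log2 CPM among 9326 other genes past the minimum base mean of 20, were *Lrch1* (r = 0.999), *Srpk2* (0.999), *Cpm* (0.998), *Tsr2* (0.998) and *Srgap1* (0.995). A total of 344 genes had an r above 0.95, and the libraries fall into 2 genotypes, so that r mostly ranks genes by their separation of the groups. Of these 5, *Cpm*, which encodes carboxypeptidase M, came nearest to *Igfbp2* in fold change, with 8, 4 and 4 reads in control and 100, 92 and 151 reads in Rnf40ΔSC libraries.

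Summed levels of fibroblast, perineurial, endothelial, pericyte or smooth muscle, macrophage and adipocyte markers had lower means in Rnf40ΔSC than in control libraries, and of these lists the adipocyte markers overlapped between the groups. The counts of called markers stand beside 16.2% lower and 15.4% higher of all genes tested. Of 8 fibroblast markers 6 were lower, with a summed level of 29003, 28268 and 30847 CPM in control and 21671, 20364 and 21087 in Rnf40ΔSC libraries, and *Col1a2* as the most abundant. The ratio of the group means was 0.716 for fibroblast, 0.760 for perineurial (2 of 2 tested lower, *Cldn1* most abundant), 0.733 for endothelial (4 of 8, *Cdh5*), 0.668 for pericyte or smooth muscle (5 of 7, *Pdgfrb*), 0.682 for macrophage (4 of 7, *Csf1r*) and 0.722 for adipocyte markers (2 of 6, *Fabp4*). With total counts these ratios were 0.861, 0.914, 0.882, 0.802, 0.820 and 0.865. *Igf1* itself had a fold of 0.797, *Igf2* 0.645, *Igfbp5* 0.752 and *Igfbp6* 0.594. The part of these cell types in the lower counts of *Igf1*, *Igf2*, *Igfbp5* and *Igfbp6* was not tested. Marker RNA is not a count of cells. By staining at this age, the study reported more Iba1-positive macrophages and more cells in total in Rnf40ΔSC nerves.

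The Schwann cell marker *Sox10* had 957, 1055 and 1084 normalised counts in control and 629, 574 and 592 in Rnf40ΔSC libraries, without overlap, at a log2 fold change of -0.79 (edgeR adjusted p = 8.8e-09). By staining, the study found a comparable share of Sox10-positive cells in nerves of both groups. Of 6 markers of immature or promyelinating Schwann cells 3 were higher and 2 lower, beside 15.4% and 16.2% of all genes tested. Their sum was 635, 653 and 624 CPM in control and 1248, 1582 and 1266 in Rnf40ΔSC libraries, led by *Pou3f1*. The part of these cells in the higher counts of *Igfbp2* was not tested. Neuron markers summed to 2.47, 3.39 and 4.91 CPM in control and 12.9, 11.2 and 10.8 in Rnf40ΔSC libraries, led by *Snap25*, the 1 of 3 that passed the filter, with 3, 6 and 8 reads in control and 23, 13 and 23 in Rnf40ΔSC libraries. No marker found in the tables was at 0 in all libraries. Skeletal muscle markers, led by *Myh4*, were 4177, 3174 and 2305 CPM in control but 90.2, 237 and 3059 in Rnf40ΔSC libraries, with 0 of 11 called in edgeR. The part of muscle RNA in the members' values was not tested. Rnf40ΔSC replicate 3 was also fitted as the single library of its group, which has no spread of its own and was chosen after the data were seen. The log2 fold changes in that fit were -0.54 for *Igf2*, -0.39 for *Igfbp5*, -0.73 for *Igfbp6*, -0.35 for *Igfbp7* and -0.35 for *Igf1*.

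**Figure D5:**
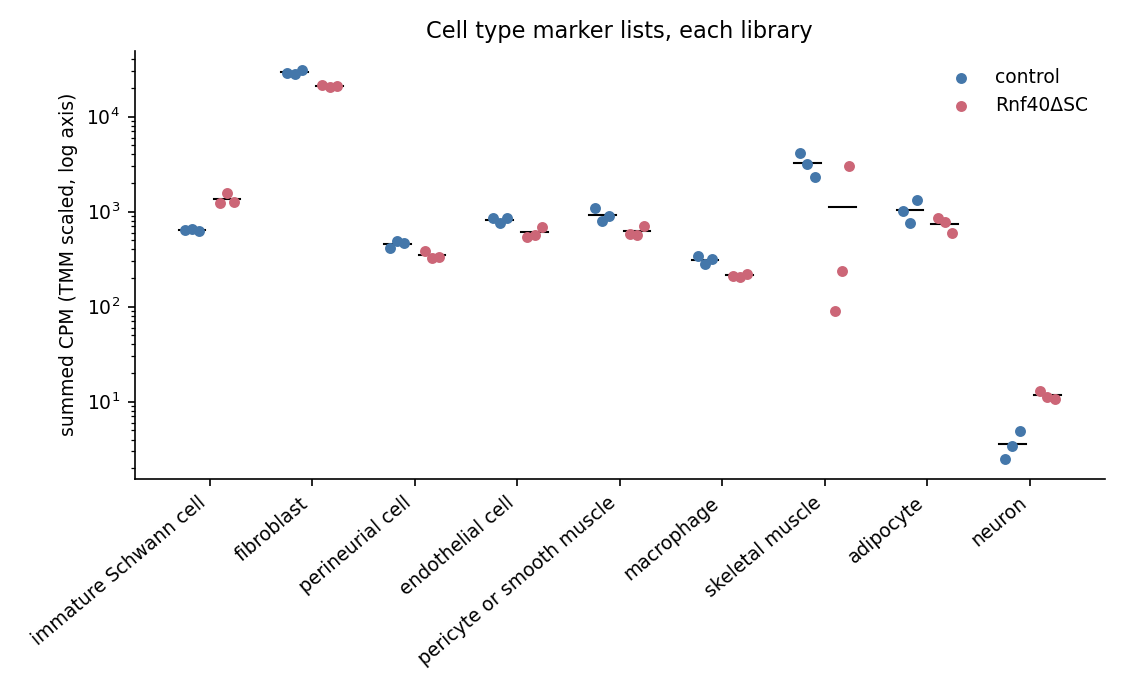
Summed CPM (TMM scaled, log axis) of marker lists of immature Schwann cells and of other cell types in each library, with control in blue, Rnf40ΔSC in red and a bar at each group's mean. Fibroblast markers are lower in each Rnf40ΔSC library, and skeletal muscle markers range from 90.2 to 3059 among Rnf40ΔSC libraries.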

How the data were processed

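The authors used TopHat for alignment to mm9 and HTSeq-count for counting unique reads per gene, and deposited these raw counts; the submitters' processing notes also name Bowtie2 2.1.0 and mm10. The gene annotation and strand setting of the counting are not given in the sources used here. Of the rows, 0 named no gene. The methods name a directional library kit, the labels another kit.

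Counts were analysed in R 4.3.3 with edgeR 4.0.16: filterByExpr (11371 genes), TMM, and a robust quasi-likelihood fit on genotype alone, with Benjamini-Hochberg adjustment over all genes tested. Calls were made at an adjusted p of at most 0.05. The labels name the libraries biological replicates, and the study's methods describe them as pools of sciatic nerves. RPKM used the union of GENCODE vM1 exons. Named genes were all members and *Rnf40*, called pathway genes, the most abundant gene of each list, markers at 0, and the 5 genes with the highest r with *Igfbp2*; others were named after their values were seen. The summed level of the Schwann cell marker list is not reported here. Members and lists were chosen with earlier results of these data known. The script was tested on simulated data.

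Base means use the arithmetic mean of the effective library sizes, which gave 998 genes at the study's limits. A geometric mean, which gave 982, was tried after the first count had been seen to differ from that of an earlier analysis; since that difference was the reason to try it, the arithmetic mean was kept. It affects no test.

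Alternatives were RLE or total-count scaling, DESeq2 1.42.0, no filter on low counts, at least 10 counts in every library, the replicate block, a fit without robust estimation, each library left out, the study's limits and the longest transcript for RPKM. Rnf40ΔSC replicate 3 alone of its group, and the geometric scale, were chosen after seeing the data.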

Additional observations from a re-analysis of the deposited data

How the results depend on the processing

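Under total-count scaling 3766 genes were higher and 880 lower (18.9% of calls lower, against 51.2% with TMM), 2 of the 9 members were higher and 2 lower, and 8 pathway genes were higher and 4 lower. It reversed *Igf1r* (0.12), *Igfbp4* (0.16) and *Igfbp7* (0.049), and *Igf2r* reversed without control replicate 1 (-0.029, and up to 0.17 with another library left out); none of these was called in those fits. That scaling takes no account of the share of counts in a few abundant genes.

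With Rnf40ΔSC replicate 3 alone of its group, added after seeing the data and assumed to vary like the control libraries, 1119 genes were higher and 1263 lower. At the study's limits 424 genes were higher and 574 lower, and 0 of the 9 members were lower; on the geometric scale of the base mean, also added after seeing the data, 415 genes were higher and 567 lower. The longest transcript changed 2 places in the order of RPKM.

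Correlations of deviations did not show a pairing of samples by replicate number. Same-numbered libraries had -0.0948, -0.015 and -0.0621, and differently numbered ones lay between -0.0307 and 0.104. So few libraries cannot settle whether samples shared a litter or batch. With the replicate block 1727 genes were higher and 1837 lower, and 4 of the 9 members were lower. Genes with a few reads per library, among them *Igfbp2* in control, are limited by depth.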
